A study of Mus musculus with 8 samples.

Results

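The 6 genes described here are Klrb1c, which encodes the surface protein NK1.1, its relatives Klrb1a, Klrb1b and Klrb1f, and the ligand genes Clec2d and Clec2i. They were chosen by name, not by their values, through their gene identifiers, out of 27179 identifiers in a table of read counts. All 6 were among the 13794 genes that passed a filter on low counts and were tested. RNA was sequenced from natural killer T (NKT) cells sorted from the thymus of C57BL/6 mice, in Ezh2-KO and WT animals. Ezh2-KO cells gave 1 library of CD44- NK1.1- cells, 2 of CD44+ NK1.1- cells and 1 of CD44+ NK1.1+ cells, and WT cells gave the same numbers. The series design calls the CD44+ NK1.1- replicates biological, so spread between replicates was measured in that subset alone, and each of the other 4 groups had no replicate. The sources used here do not say how Ezh2 was deleted, in which cells, or how old the mice were.

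NKT cells are T cells that recognise lipids presented by CD1d, and in the thymus they gain CD44 and then, in many of them, NK1.1. The NKR-P1 proteins encoded by Klrb1 genes are C-type lectin-like receptors, best known on natural killer cells. NK1.1 (NKR-P1C) is an activating receptor that signals through the adaptor Fc receptor gamma chain, while NKR-P1B is inhibitory and engages the phosphatase SHP-1. Their known ligands are proteins of the Clec2 family, encoded among the receptor genes in the same cluster: Clr-b, the product of Clec2d, is bound by NKR-P1B, and Clr-g, the product of Clec2i, by NKR-P1F. Ezh2 is the methyltransferase of Polycomb repressive complex PRC2, whose mark on histone H3 goes with silent genes.

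All 6 genes lie in a 577.3 kb stretch of chromosome 6 of build mm10 that holds 27 RefSeq genes. In order along the chromosome they are Klrb1a at chr6:128609227-128622934, Klrb1c at chr6:128778485-128788641, Klrb1b at chr6:128813706-128826315, Clec2i at chr6:128887587-128898168, Klrb1f at chr6:129045837-129059724 and Clec2d at chr6:129180615-129186535. Klrb1a, Klrb1b and Klrb1c are on the minus strand and the other 3 on the plus strand. The 250 bases before the annotated start of Klrb1a, Klrb1c and Klrb1b are shown because these genes had higher levels in NK1.1+ cells, as described below, and because the first 2 are near copies. Sequences are from RefSeq, build GRCm38.p6, and capitals mark the letters TGTGGT, the core bound by Runx factors. The windows are chr6:128622935-128623184 (minus strand) for Klrb1a, chr6:128788642-128788891 (minus) for Klrb1c and chr6:128826316-128826565 (minus) for Klrb1b.

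Klrb1a: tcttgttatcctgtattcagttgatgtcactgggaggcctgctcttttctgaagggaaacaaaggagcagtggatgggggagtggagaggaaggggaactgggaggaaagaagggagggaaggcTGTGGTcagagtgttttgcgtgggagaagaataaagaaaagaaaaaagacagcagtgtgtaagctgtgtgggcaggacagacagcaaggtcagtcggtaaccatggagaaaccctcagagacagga
Klrb1c: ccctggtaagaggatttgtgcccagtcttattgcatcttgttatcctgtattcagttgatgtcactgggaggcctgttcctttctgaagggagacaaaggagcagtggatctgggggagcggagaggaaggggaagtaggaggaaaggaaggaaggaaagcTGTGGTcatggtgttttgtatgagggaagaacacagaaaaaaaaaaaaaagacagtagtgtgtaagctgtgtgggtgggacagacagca
Klrb1b: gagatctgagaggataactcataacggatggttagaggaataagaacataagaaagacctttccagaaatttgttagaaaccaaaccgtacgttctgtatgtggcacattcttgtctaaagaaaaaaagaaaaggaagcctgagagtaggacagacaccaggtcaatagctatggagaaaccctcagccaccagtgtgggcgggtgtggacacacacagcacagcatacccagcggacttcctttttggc

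The windows of Klrb1a and Klrb1c were identical at 188 of 210 aligned bases (89.5%), and the other 14 pairs among the 6 genes at 47.5% to 65%. The window of Klrb1f, not shown, ends before a start that lies 64 bases inside the gene record given above. TGTGGT or its reverse complement ACCACA was found 126 bases before the start of Klrb1a and 89 bases before that of Klrb1c, and in no window of the other 4 genes. Of 32851 mouse promoter windows of the same length, 14% held it. The T-box core AGGTGT or its reverse complement ACACCT was in none of the 6 windows and in 11.8% of all windows. These matches describe letters in the windows and are not evidence of binding.

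Library depth ranged from 20308745 to 22995090 counts, so that 3 counts corresponded to 0.129 to 0.151 CPM, a count scaled to the size of its library. Within each subset Ezh2 RNA was lower in Ezh2-KO than in WT libraries, and it ran from 40.4 to 83.3 CPM in Ezh2-KO and from 57.2 to 135.8 CPM in WT libraries over the subsets. Which part of the gene was removed is not stated, so reads from the rest of it may remain in these counts. Over all subsets its log2 fold change, Ezh2-KO over WT, was -0.56 (SE 0.07, adjusted p = 0.00402). The T cell genes Cd3e (380 to 621 CPM) and Cd3d (550 to 813 CPM) and the NKT factor gene Zbtb16 (114 to 449 CPM) were detected in every library. Cd44 averaged 3.28 log2 higher in CD44+ NK1.1- than in CD44- NK1.1- cells (SE 0.13, adjusted p = 0.000506). Summed over their lists, 5 B cell markers reached at most 12.2 CPM, 5 myeloid markers 8.65, 5 dendritic cell markers 9.98 and 5 thymic epithelial markers 5.79. The sum of 4 erythroid markers was 18.1 CPM in Ezh2-KO and 0.899 in WT CD44- NK1.1- cells, 17.3 and 0.45 in Ezh2-KO against 1.13 and 1.29 in WT CD44+ NK1.1- cells, and 51.1 in Ezh2-KO against 1.16 in WT CD44+ NK1.1+ cells. It was thus higher in 3 of the 4 Ezh2-KO libraries than in any WT library, and its part in the results below was not tested. Of 3 tested erythroid genes, the globin gene Hbb-bs was called over all subsets (log2 fold change 4.37, SE 1.1, adjusted p = 0.0488) and none was called within a subset. WT CD44+ NK1.1- replicate 1 stood apart, with 0.154% of its counts from mitochondrial genes against 0.0387% to 0.0745% in the other 7 libraries.

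Klrb1c was the most abundant of the 4 receptor RNAs in every library, and its level followed the sort. In CPM it had 15.4 in Ezh2-KO and 32.3 in WT CD44- NK1.1- cells, 50.04 and 41.7 in Ezh2-KO against 217.5 and 68.5 in WT CD44+ NK1.1- cells, and 1447 in Ezh2-KO against 1146 in WT CD44+ NK1.1+ cells. The lowest and highest of these libraries are both Ezh2-KO, and the NK1.1- libraries of both genotypes still held Klrb1c reads, from 336 to 4825. Its rank order was CD44- NK1.1-, CD44+ NK1.1- and CD44+ NK1.1+ within either genotype. WT CD44+ NK1.1- replicate 2 (68.5 CPM) lay nearer to the Ezh2-KO replicates than to WT replicate 1. In bulk samples, fewer cells that express a gene and less RNA of it per cell cannot be told apart.

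Klrb1a, which encodes NKR-P1A, was expressed at a much lower level with the same order of subsets. It had 1.42 CPM in Ezh2-KO and 1.89 in WT CD44- NK1.1- cells, 4.10 and 2.93 in Ezh2-KO against 8.66 and 4.52 in WT CD44+ NK1.1- cells, and 34.4 in Ezh2-KO against 22.6 in WT CD44+ NK1.1+ cells. Klrb1f, whose product binds Clr-g, had 1.70 CPM in Ezh2-KO and 1.93 in WT CD44- NK1.1- cells, 4.72 and 3.65 in Ezh2-KO against 7.30 and 5.38 in WT CD44+ NK1.1- cells, and 69.2 in Ezh2-KO against 26.1 in WT CD44+ NK1.1+ cells. For Klrb1a, Klrb1c and Klrb1f alike, both Ezh2-KO CD44+ NK1.1- libraries were below both WT ones and the Ezh2-KO CD44+ NK1.1+ library was above the WT one. The share of all tested genes with such an order was not counted. With all libraries these differences were not called in the tests below, except Klrb1f in CD44+ NK1.1+ cells under 2 other settings. Klrb1b, the inhibitory receptor gene, had 0.412 CPM in Ezh2-KO and 0.495 in WT CD44- NK1.1- cells (9 and 11 counts), 14.5 and 14.1 in Ezh2-KO against 9.69 and 8.39 in WT CD44+ NK1.1- cells, and 118.6 in Ezh2-KO against 51.6 in WT CD44+ NK1.1+ cells. Unlike the other 3 receptor genes, its Ezh2-KO libraries were the higher ones in both CD44+ subsets.

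The ligand genes varied less across the libraries. Clec2d had 63.7 CPM in Ezh2-KO and 36.5 in WT CD44- NK1.1- cells, 55.7 and 57.4 in Ezh2-KO against 84.8 and 41.2 in WT CD44+ NK1.1- cells, and 114.6 in Ezh2-KO against 92.5 in WT CD44+ NK1.1+ cells. The WT CD44+ NK1.1- replicates enclosed both Ezh2-KO ones. Clec2i had 10.6 CPM in Ezh2-KO and 13.4 in WT CD44- NK1.1- cells, 11.02 and 10.9 in Ezh2-KO against 22.1 and 19.7 in WT CD44+ NK1.1- cells, and 20.6 in Ezh2-KO against 24.5 in WT CD44+ NK1.1+ cells. Within each subset, Clec2i was lower in Ezh2-KO than in WT libraries.

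**Figure D1:**
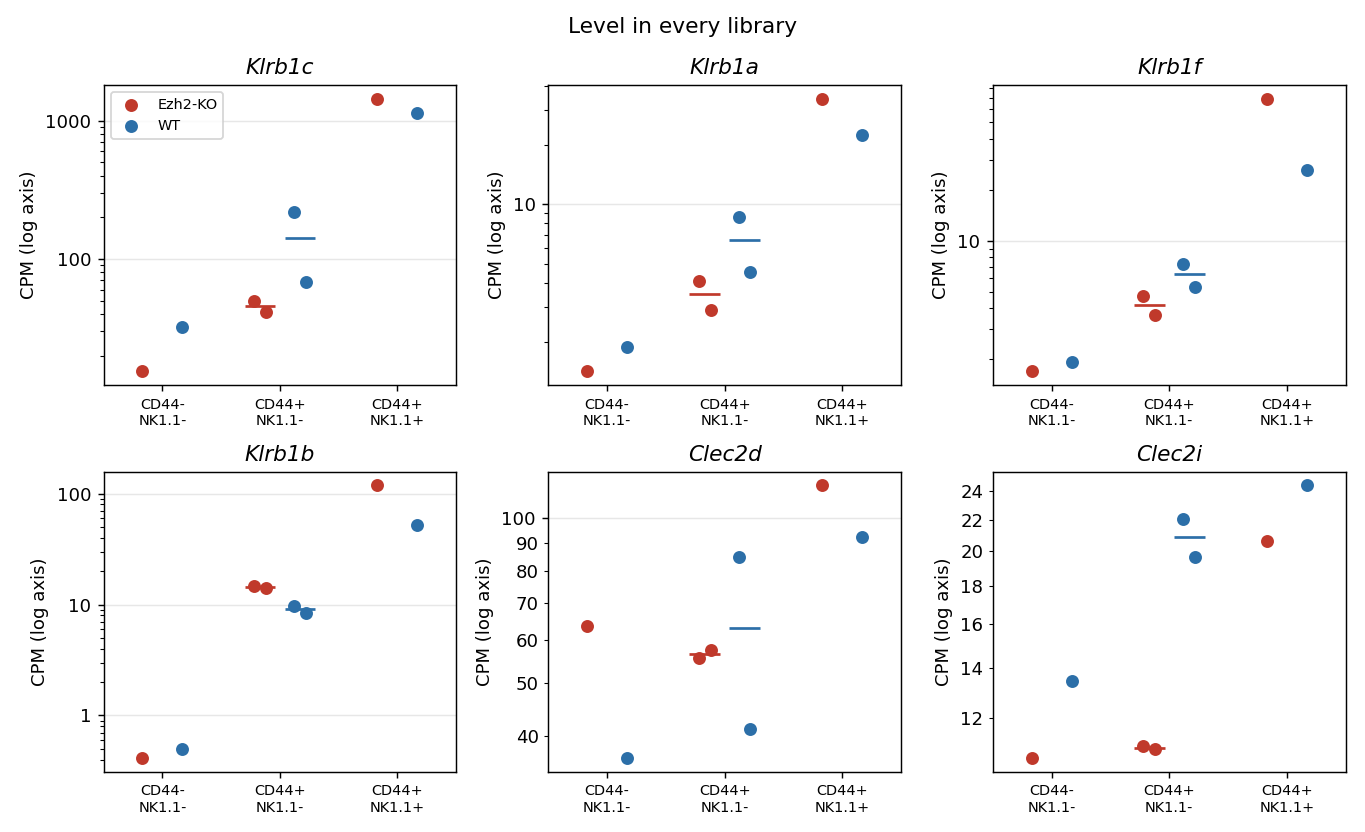
Level of each of the 6 genes in CPM (log axis) in every library, by subset, with Ezh2-KO in red and WT in blue. Points are libraries, bars are means of the 2 CD44+ NK1.1- replicates. Klrb1c is at 217.5 and 68.5 CPM in the WT replicates and at 50.04 and 41.7 CPM in the Ezh2-KO ones.

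Per length, as CPM per kilobase of gene length (RPKM), Klrb1c had 549.9 in Ezh2-KO and 435.5 in WT CD44+ NK1.1+ cells. Klrb1b had 53.6 and 23.3 RPKM, Klrb1f 40.5 and 15.3, Klrb1a 27.0 and 17.7, Clec2d 94.4 and 76.2, and Clec2i 21.1 and 25.0, in the same order of genotypes. Clec2d was therefore second to Klrb1c per length in NK1.1+ cells of both genotypes. In CD44- NK1.1- cells Clec2d was first, at 52.4 RPKM in Ezh2-KO and 30.1 in WT cells, above Klrb1c at 5.85 and 12.3. Klrb1b was last there, at 0.186 in Ezh2-KO and 0.224 RPKM in WT cells.

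The makeup of the receptor RNA, as each gene's share of the summed RPKM of the 4 Klrb1 genes, differed between libraries. Klrb1c held 71.8% in Ezh2-KO and 81.2% in WT CD44- NK1.1- cells, 60.2% and 59.4% in Ezh2-KO against 84.2% and 71.3% in WT CD44+ NK1.1- cells, and 82% in Ezh2-KO against 88.6% in WT CD44+ NK1.1+ cells. The share of Klrb1b was 2.29% in Ezh2-KO and 1.48% in WT CD44- NK1.1- cells, 20.8% and 24.0% in Ezh2-KO against 4.47% and 10.4% in WT CD44+ NK1.1- cells, and 7.99% in Ezh2-KO against 4.74% in WT CD44+ NK1.1+ cells. In both CD44+ subsets the Klrb1b share was higher and the Klrb1c share lower in the Ezh2-KO libraries. In CD44- NK1.1- cells the Klrb1c share was also lower in Ezh2-KO cells. The Klrb1b shares there rested on 9 counts in Ezh2-KO and 11 in WT cells, too few to compare. Shares sum to a whole, so a gene's share also moves with the others, and no test was made of them.

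**Figure D2:**
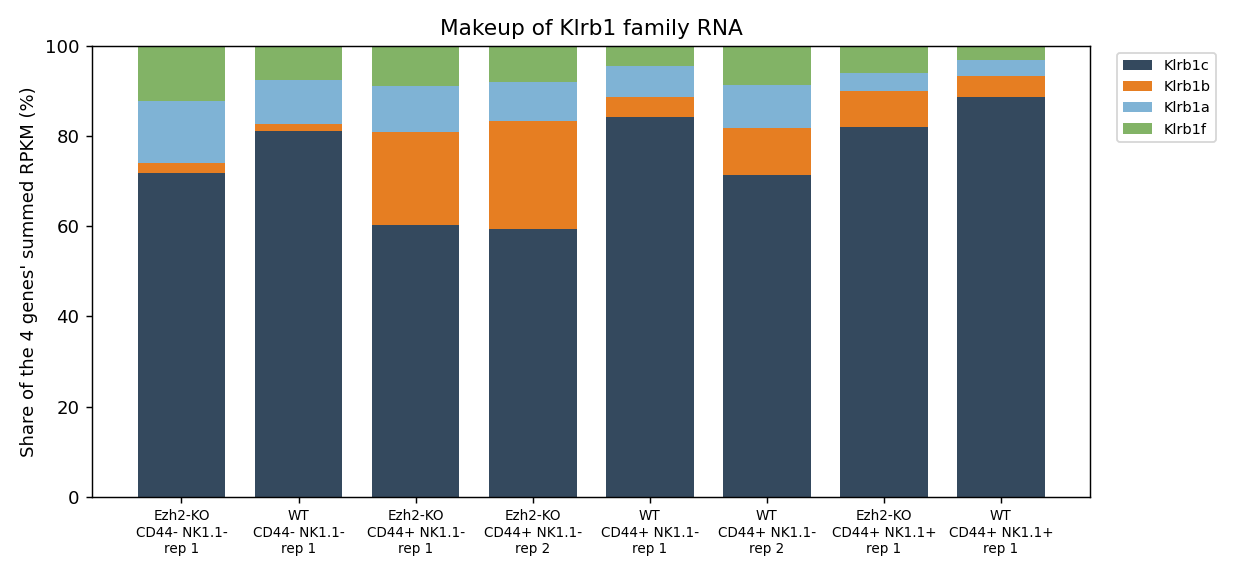
Share of each Klrb1 gene in the summed RPKM of the 4 receptor genes (vertical axis, %), 1 bar for each library. Klrb1b (orange) makes up 20.8% and 24.0% in the Ezh2-KO CD44+ NK1.1- replicates against 4.47% and 10.4% in the WT ones.

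The 2 WT replicates of CD44+ NK1.1- cells differed most in Klrb1c. Replicate 1 held 4825 counts and replicate 2 held 1593, a ratio of 3.17 in CPM, and 99.2% of tested genes differed less between these libraries on the log2(CPM + 0.5) scale. For Clec2d the ratio was 2.06 (97.7% of genes differed less) and for Klrb1a it was 1.92 (96.4%). The ratio was 1.36 for Klrb1f, 1.16 for Klrb1b and 1.12 for Clec2i, so that all 6 were higher in replicate 1. Klrb1c and Clec2d were past a 2-fold difference, as were 2.47% of tested genes. Between the Ezh2-KO replicates no member passed 2-fold, against 0.225% of tested genes, and the ratios ran from 0.97 for Clec2d to 1.4 for Klrb1a, with 1.20 for Klrb1c. WT replicate 1 also had more RNA of 12 immediate early genes, which respond within minutes to stimulation or handling, with a sum of 3320 CPM against 655 in WT replicate 2 and 587 and 552 in the Ezh2-KO replicates. Its sum of 12 NKT1 genes was 3560 CPM against 2910 in replicate 2, and that of 7 markers of natural killer (NK) and innate lymphoid cells was 61.0 against 25.0 CPM. The part of these differences in the Klrb1c level was not tested.

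**Figure D3:**
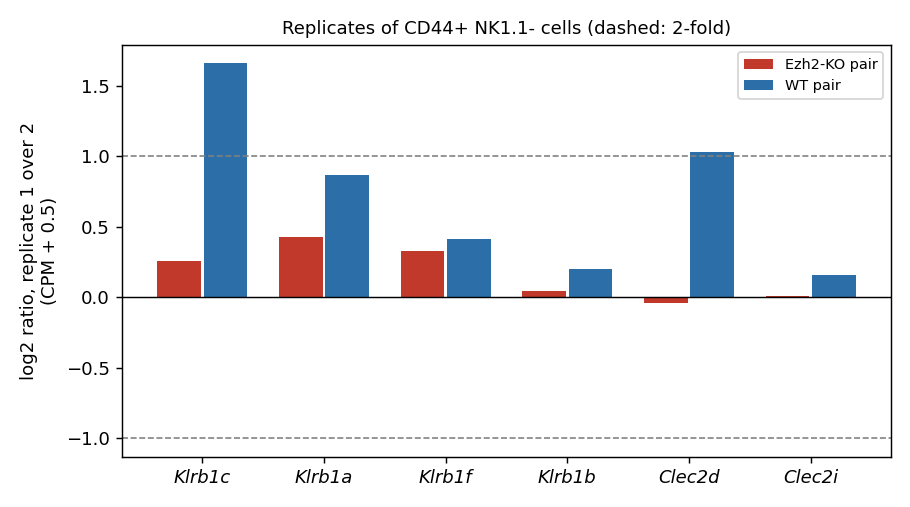
Log2 ratio of replicate 1 over replicate 2 of CD44+ NK1.1- cells on the log2(CPM + 0.5) scale, for the Ezh2-KO pair (red) and the WT pair (blue), with dashed lines at 2-fold. The WT bars of Klrb1c (1.66) and Clec2d (1.03) pass the line.

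Whether loss of Ezh2 changed the family was tested first in CD44+ NK1.1- cells, the replicated subset. Klrb1b rose and Clec2i fell in Ezh2-KO cells, 2 of 6 genes, where 4.94% of all tested genes were called at an adjusted p under 0.05, 3.78% higher and 1.16% lower. Klrb1b averaged 14.3 ± 0.297 CPM in Ezh2-KO and 9.04 ± 0.923 in WT cells (SD, n = 2 each), a log2 fold change of 0.67 (SE 0.13, adjusted p = 0.0438). Clec2i averaged 11 ± 0.0597 CPM in Ezh2-KO and 20.9 ± 1.72 in WT cells (SD, n = 2 each), a log2 fold change of -0.93 (SE 0.13, adjusted p = 0.0173). The replicates of both genes did not overlap between genotypes, but the share of all tested genes without overlap was not counted. The call of Klrb1b was lost without Ezh2-KO CD44+ NK1.1- replicate 1 (adjusted p = 0.423) or 2 (0.398), without the Ezh2-KO CD44+ NK1.1+ library (0.0572) and under 5 of 8 other settings, among them DESeq2 (0.0674) and limma-voom (0.0709). The call of Clec2i was lost without Ezh2-KO replicate 1 (adjusted p = 0.251) or 2 (0.255) and held under all 8 other settings.

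For the gene of the sort marker itself no call was made. Klrb1c averaged 45.9 ± 5.89 CPM in Ezh2-KO and 143 ± 105 in WT cells (SD, n = 2 each), and its log2 fold change of -1.64 had an SE of 0.69 (adjusted p = 0.34). The Ezh2-KO mean was 0.211 of WT replicate 1 and 0.67 of WT replicate 2. Klrb1a had a log2 fold change of -0.91 (SE 0.35, adjusted p = 0.227) and Klrb1f of -0.60 (SE 0.22, adjusted p = 0.19), and neither was called. Clec2d had a log2 fold change of -0.16 (SE 0.36, adjusted p = 0.861), and its direction depends on the WT library used. The Ezh2-KO mean of Clec2d was 0.666 of WT replicate 1 and 1.37 of WT replicate 2. Without WT replicate 1 its log2 fold change was 0.46 and without WT replicate 2 it was -0.59, and that of Klrb1c was -0.58 and -2.25. With either of these libraries left out the spread rested on the closely matching Ezh2-KO pair, and calls rose among all tested genes, not only among these 6. The median log2 fold change of the 6 genes was -0.75, against -0.01 over all tested genes.

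In CD44+ NK1.1+ cells, with 1 library a side and the spread taken from the replicated subset, Klrb1b was called and rose again in Ezh2-KO cells. Its log2 fold change was 1.20 (SE 0.17, adjusted p = 0.0464), 1 of 6 genes, where 0.95% of all tested genes were called and 0.79% were higher. The call was lost without either Ezh2-KO CD44+ NK1.1- replicate (adjusted p = 0.246 and 0.239), with a filter of at least 1 CPM (0.0578), with limma-voom (0.0663) and with robust=FALSE (0.0603). Klrb1f had a larger log2 fold change, 1.41 (SE 0.27, adjusted p = 0.098), which was called with DESeq2 (0.0454) and with no filter (0.0411). The values were 0.61 for Klrb1a (SE 0.44, adjusted p = 0.811), 0.34 for Klrb1c (SE 0.94, 0.98), 0.31 for Clec2d (SE 0.51, 0.955) and -0.25 for Clec2i (SE 0.18, 0.817). Without WT CD44+ NK1.1- replicate 1 or 2, from which the spread is borrowed, more of the 6 were called, as were more of all tested genes.

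In CD44- NK1.1- cells, again 1 library a side, none of the 6 genes was called by edgeR, where 0.239% of all tested genes were, and their smallest unadjusted p was 0.123, for Clec2i. The log2 fold changes were -1.07 for Klrb1c (SE 1.01, adjusted p = 0.891), -0.41 for Klrb1a (0.936), -0.19 for Klrb1f (0.961), -0.26 for Klrb1b (0.97), 0.80 for Clec2d (SE 0.52, 0.788) and -0.34 for Clec2i (0.712). Klrb1c and Clec2d were called without WT CD44+ NK1.1- replicate 1 or 2, at unchanged log2 fold changes. With either left out the spread rested on the closely matching Ezh2-KO pair, and calls rose among all tested genes. The SE of Klrb1c was close to the size of its difference.

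**Figure D4:**
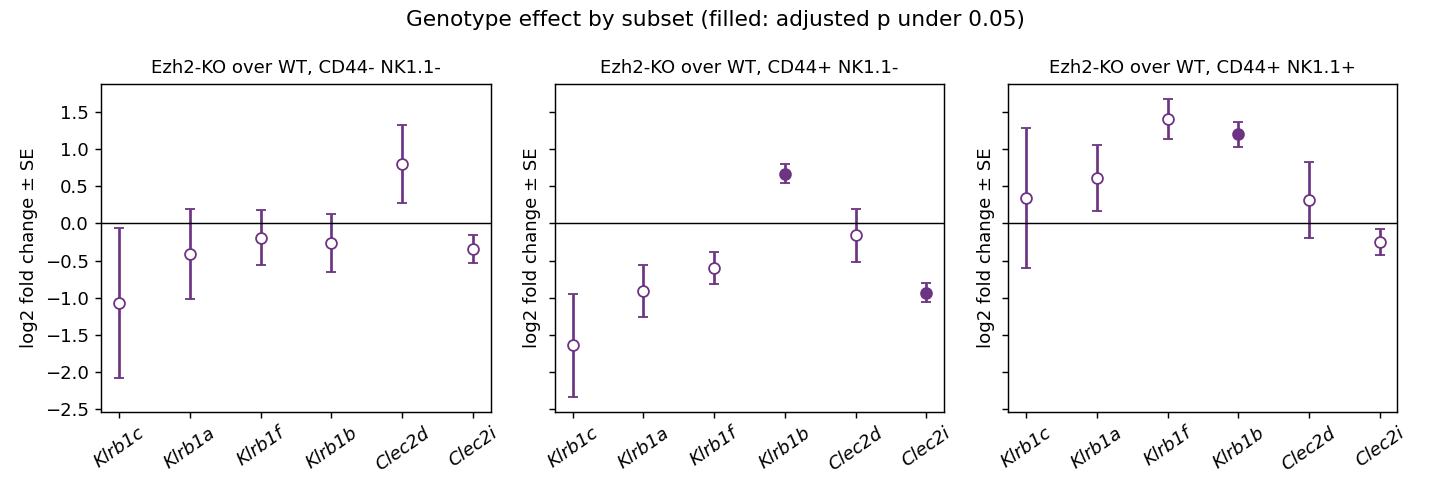
Log2 fold change of the 6 genes, Ezh2-KO over WT, with its SE (bars), in CD44- NK1.1-, CD44+ NK1.1- and CD44+ NK1.1+ cells. Filled points have an adjusted p under 0.05: Klrb1b (0.67) and Clec2i (-0.93) in CD44+ NK1.1- cells and Klrb1b (1.20) in CD44+ NK1.1+ cells.

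Over the 3 subsets together, in a model that assumes 1 genotype effect, the same pair was called. The spread in this model also takes in differences of the genotype effect between subsets. Klrb1b had a log2 fold change of 0.80 (SE 0.15, adjusted p = 0.0162) and Clec2i of -0.61 (SE 0.14, adjusted p = 0.0288), 2 of 6 genes where 11.3% of all tested genes were called, 6.43% higher and 4.89% lower. The call of Klrb1b was lost without Ezh2-KO CD44+ NK1.1- replicate 1 (adjusted p = 0.0718) or 2 (0.0672), the Ezh2-KO CD44+ NK1.1+ library (0.094) or the WT CD44+ NK1.1+ library (0.076). It was also lost when the mean of the 3 genotype effects was tested (log2 fold change 0.54, adjusted p = 0.134). That of Clec2i was lost without Ezh2-KO CD44+ NK1.1- replicate 1 (0.122) or 2 (0.127) or WT replicate 2 (0.0703). Without WT CD44+ NK1.1- replicate 1, Clec2d was called (log2 fold change 0.51), as were more of all tested genes. With all libraries it was not called (0.20, adjusted p = 0.698). Klrb1c had -1 (SE 0.55, adjusted p = 0.329), Klrb1a -0.34 (0.581) and Klrb1f 0.11 (0.894). Klrb1a was at 0.08 without WT CD44+ NK1.1- replicate 1, and Klrb1f was at -0.49 without the Ezh2-KO or the WT CD44+ NK1.1+ library.

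Whether the genotype effect differed between subsets was tested as a difference of log2 fold changes. That of Klrb1f was 2.01 higher in CD44+ NK1.1+ than in CD44+ NK1.1- cells (SE 0.35, unadjusted p = 0.00105, adjusted p = 0.618). The difference was 1.98 for Klrb1c, 1.51 for Klrb1a, 0.68 for Clec2i, 0.54 for Klrb1b and 0.47 for Clec2d, all with an adjusted p of 1. By edgeR 0% of tested genes were called, with 519 at an unadjusted p under 0.05, while DESeq2 called 28 genes, among them Klrb1f (adjusted p = 0.0495). The opposite signs of Klrb1a, Klrb1c and Klrb1f in the 2 CD44+ subsets were therefore not shown to differ by edgeR with all libraries. Without WT CD44+ NK1.1- replicate 1 or 2 the test called more of the 6 genes, and more of all tested genes. Between CD44- NK1.1- and CD44+ NK1.1- cells none of the 6 was called by edgeR (adjusted p of 0.992 to 0.993, smallest unadjusted p 0.0428, for Clec2i), and 0.0217% of all tested genes were.

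In the comparison of CD44+ NK1.1+ with CD44+ NK1.1- cells, as the mean over both genotypes, Klrb1a, Klrb1c and Klrb1f each had their own largest difference of all comparisons. Klrb1a rose by 2.53 log2 (SE 0.27, adjusted p = 0.0025), Klrb1f by 3.04 (SE 0.17, adjusted p = 0.000494) and Klrb1b by 2.78 (SE 0.10, adjusted p = 0.000282). These 3 calls held with each library left out in turn and under every other setting run. Klrb1c rose by 3.99 (SE 0.57, adjusted p = 0.0251), which is a check of the sort and not a finding, since its product was used to separate the cells. Clec2i rose by 0.57 (SE 0.11, adjusted p = 0.013), and Clec2d had 0.79 (SE 0.30, adjusted p = 0.121). Without Klrb1c, 4 of the other 5 genes were higher in NK1.1+ cells, where 32.5% of all tested genes were called and 16.4% were higher. The median over these 5 was 2.53, against 0 over all tested genes.

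With all libraries, the NK1.1+ to NK1.1- ratio was greater in Ezh2-KO than in WT cells for each of the 6 genes. It was 31.5-fold in Ezh2-KO and 8.02-fold in WT cells for Klrb1c, 16.5 and 4.12 for Klrb1f, 9.79 and 3.43 for Klrb1a, and 8.27 and 5.70 for Klrb1b. For the ligand genes it was 2.03-fold in Ezh2-KO and 1.47-fold in WT cells for Clec2d, and 1.88 and 1.17 for Clec2i. Without WT CD44+ NK1.1- replicate 1 the Clec2d ratio was the smaller one in Ezh2-KO cells (difference of log2 fold changes -0.15). These ratios restate the genotype differences above and their difference was not called by edgeR with all libraries. Klrb1c lost its call without Ezh2-KO CD44+ NK1.1- replicate 1 (adjusted p = 0.181) or 2 (0.196), without the Ezh2-KO (0.134) or WT (0.0501) CD44+ NK1.1+ library, with no filter (0.0664) and in WT libraries alone (0.134). Clec2i lost it without Ezh2-KO replicate 1 (0.0951) or 2 (0.100), without the Ezh2-KO CD44+ NK1.1+ library (log2 fold change 0.23, adjusted p = 0.395) and in WT libraries alone (0.393). Clec2d was called without WT CD44+ NK1.1- replicate 1 (1.09) or 2 (0.57), when calls also rose among all tested genes.

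**Figure D5:**
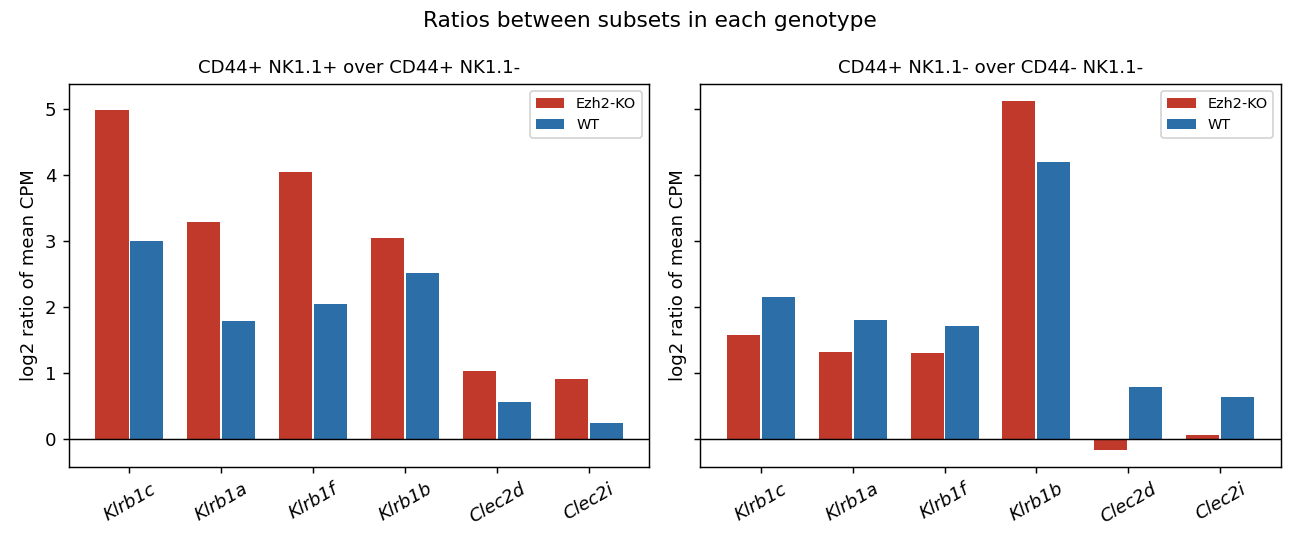
Log2 ratio of mean CPM between subsets for the 6 genes, with Ezh2-KO in red and WT in blue: CD44+ NK1.1+ over CD44+ NK1.1- cells (left) and CD44+ NK1.1- over CD44- NK1.1- cells (right). The linear ratio of Klrb1b on the right is 34.8 in Ezh2-KO and 18.3 in WT cells, and that of Klrb1c on the left is 31.5 and 8.02. The Klrb1b ratios on the right have denominators of 9 counts in Ezh2-KO and 11 in WT cells.

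Klrb1b had the largest value of the 6 genes in the step before NK1.1. In CD44+ NK1.1- against CD44- NK1.1- cells it rose by 4.64 log2 (SE 0.18, adjusted p = 0.000506), a ratio of 34.8 in Ezh2-KO and 18.3 in WT cells, and this call held with each library left out and under all other settings run. The CD44- NK1.1- libraries held only 9 Klrb1b counts in Ezh2-KO and 11 in WT cells, so the size of these ratios is uncertain. Klrb1f rose by 1.5 (SE 0.22, adjusted p = 0.0237). These were 2 of 6 genes, where 2.66% of all tested genes were called and 1.59% were higher. The call of Klrb1f was lost without the Ezh2-KO (adjusted p = 0.055) or WT (0.272) CD44- NK1.1- library, without Ezh2-KO CD44+ NK1.1- replicate 1 (0.0872) or 2 (0.0612), with limma-voom (0.0704) and in WT (0.056) or Ezh2-KO (0.277) libraries alone. Klrb1a had 1.55 (SE 0.35, adjusted p = 0.106), Klrb1c 1.86 (SE 0.65, 0.371), Clec2i 0.34 (0.237) and Clec2d 0.31 (0.743). Klrb1a and Klrb1c were called without WT CD44+ NK1.1- replicate 1 or 2, as was Clec2i, and Clec2d without replicate 2. With either replicate left out, calls also rose among all tested genes. Klrb1a was also called with DESeq2 (log2 fold change 1.56, adjusted p = 0.00251). Clec2d was at -0.18 without the WT CD44- NK1.1- library. The order of ratios was therefore different in the 2 steps: Klrb1b gained most at the first and Klrb1c at the second, as values, with no test of the difference between genes.

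Of the RefSeq genes between the outermost members, 21 are not members, 7 of those are in the count table and 4 were tested. None of the 4 was called between Ezh2-KO and WT cells in any subset. In CD44+ NK1.1+ against CD44+ NK1.1- cells 3 were called: Klrb1, the gene of NKR-P1G (14 counts in Ezh2-KO and 6 in WT NK1.1+ cells, 0 and 1 in Ezh2-KO and 2 and 1 in WT NK1.1- cells, adjusted p = 0.0226), BC035044 (1.33 log2 higher, adjusted p = 0.00407) and the long noncoding RNA BC064078 (1.16 higher, adjusted p = 0.00467). Clec2i overlaps BC035044 on the opposite strand over 3539 bases, and the sources used here do not give the strand setting of the counting. BC035044 held 50 and 43 counts in Ezh2-KO and 61 and 71 in WT CD44+ NK1.1- cells, and Clec2i held 231 and 243 in Ezh2-KO and 490 and 457 in WT cells. The part of the overlap in the level of Clec2i was not tested. The receptor genes are close relatives, and of stretches of 50 bases of their transcripts, 11% in Klrb1a, 6.15% in Klrb1b, 5.44% in Klrb1c and 0% in Klrb1f also occur in another gene of the count table. At 100 bases the shares were 0.766%, 0%, 0.357% and 0% in the same order. In the GENCODE M21 annotation a readthrough gene, Gm44511, overlaps Klrb1b and Klrb1c. It is not among the genes of the count table, and how reads shared between genes were counted is not stated.

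Among 16 genes of receptor signalling, 8 rose in CD44+ NK1.1+ against CD44+ NK1.1- cells and 1 fell, the T cell receptor zeta chain gene Cd247 (-0.58, adjusted p = 0.00441). The share called over all tested genes was 32.5%. Tyrobp, the gene of the adaptor DAP12, rose by 3.79 log2 (SE 0.30, adjusted p = 0.000899), and Ptpn6, which encodes SHP-1, by 0.66 (SE 0.08, adjusted p = 0.00252). Inpp5d, which encodes the phosphatase SHIP-1, rose by 0.62 (adjusted p = 0.0036) and the kinase gene Syk by 1.57 (adjusted p = 0.00376). Fcer1g, named after its values were seen because it encodes the adaptor of NK1.1, rose by 4.79 (SE 0.66, adjusted p = 0.021). It had 0.367 CPM in Ezh2-KO and 0.809 in WT CD44- NK1.1- cells, 1.77 and 1.08 in Ezh2-KO against 21.0 and 5.63 in WT CD44+ NK1.1- cells, and 95.1 in Ezh2-KO against 152.8 in WT CD44+ NK1.1+ cells. Its WT CD44+ NK1.1- replicates stood in the same order as those of Klrb1c and of every other member. In CD44+ NK1.1+ cells Fcer1g was lower in Ezh2-KO than in WT cells, while Klrb1c was higher (1447 against 1146 CPM). With 1 library a side, neither difference was called by edgeR with all libraries. The log2 fold changes were -0.68 (SE 0.99) for Fcer1g and 0.34 (SE 0.94) for Klrb1c. The median of the list was 0.26, against 0 over all tested genes. Between Ezh2-KO and WT CD44+ NK1.1- cells 1 of the 16 was called, Cd247 again (log2 fold change 0.82, adjusted p = 0.00747), a share near the 4.94% of all tested genes, and the median was -0.09.

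Of 12 genes of the NKT1 program, 11 rose in CD44+ NK1.1+ against CD44+ NK1.1- cells and none fell, against 16.4% of all tested genes that rose, with a median of 2.39. They included Tbx21, the gene of T-bet (2.31, adjusted p = 0.000282), and Il2rb, the receptor chain for interleukins 2 and 15 (2.47, adjusted p = 0.000688). In Ezh2-KO against WT CD44+ NK1.1- cells 5 of the 12 fell and none rose, Tbx21 by 1.29 log2, against 1.16% of all tested genes that fell, with a median of -0.78. Of 7 markers of NK and innate lymphoid cells, 2 rose in that comparison, Eomes by 5.76 and Klra4 by 2.18, against 3.78% of all tested genes that rose. Prf1 (-1.46, adjusted p = 0.107) and Ncr1 (-2, adjusted p = 0.567) had values of the other sign and were not called. The summed level of these 7 was 78.2 CPM in Ezh2-KO and 26.2 in WT CD44- NK1.1- cells, 122 and 129 in Ezh2-KO against 61.0 and 25.0 in WT CD44+ NK1.1- cells, and 880 in Ezh2-KO against 454 in WT CD44+ NK1.1+ cells. In the CD44+ subsets Klrb1b was higher in Ezh2-KO cells, as this sum was. In CD44- NK1.1- cells Klrb1b had 9 counts in Ezh2-KO and 11 in WT cells, too few to compare with the sum. Of the 7, Ncr1 was at 0 in 4 of 8 libraries, at 6.79 CPM in Ezh2-KO and 4.73 in WT CD44+ NK1.1+ cells and at no more than 0.225 CPM in the other 6. The part of NK cells in the levels of the receptor genes was not tested.

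Likeness of pattern was measured as the root mean square difference of log2(CPM + 0.5), each gene centred on its own mean, over the 8 libraries. By this measure the genes closest to Klrb1c were Klrc2 (0.346), Prf1 (0.369), Klrc3 (0.373), Cd244a (0.378) and Nkg7 (0.387). Those closest to Klrb1b were the Ly49 receptor genes Klra1 (0.297), Klra6 (0.535), Klra7 (0.676) and Klra3 (0.696), with Samd3 (0.623) among them. Klrb1f was closest to Pdgfb (0.245) and then to its relative Klrb1a (0.326), and Klrb1a to Armc2 (0.191) and Pdgfb (0.204). Among the 6 genes, Klrb1a and Klrb1f were most alike (0.33), Clec2d and Clec2i next (0.49), and the other pairs lay between 0.81 and 2.07. The ligand genes, which varied little, were closest to Phf21b (0.153) for Clec2d and Notch1 (0.114) for Clec2i.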

How the data were processed

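The authors deposited unnormalized read counts, whole numbers for each gene, with a gene length for each identifier. Per the submitters' processing notes, reads were processed with CASAVA, aligned to mm10 with Subread 1.4.3-p1 and counted with featureCounts. Per the labels, extraction used an RNeasy Plus Mini kit, library preparation a TruSeq RNA kit, and each sample was run on 4 lanes. Of 27179 identifiers, 25275 matched a RefSeq symbol.

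Tests used edgeR 4.0.16 in R 4.3.3. The filter filterByExpr, by group, kept 13794 genes. Libraries were scaled by TMM and fitted with glmQLFit (robust=TRUE). Each comparison used the quasi-likelihood F test with Benjamini-Hochberg adjustment over all tested genes, called at an adjusted p under 0.05. CPM are TMM-scaled, RPKM divide them by the deposited length, and SE is the log2 fold change over the square root of F. The model of 6 groups leaves 2 residual degrees of freedom, and that of subset and genotype as added effects leaves 4. Groups of 1 library borrow their spread. Whether subsets share animals is not stated.

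On simulated counts for Ezh2-KO against WT CD44+ NK1.1- cells (13435 genes), 82% of 100 genes changed 2-fold and 100% of 100 changed 4-fold were called. The simulation gave every gene the same spread in every library. In the data 2.47% of tested genes were past 2-fold between the WT replicates against 0.225% between the Ezh2-KO ones. The simulated shares therefore do not describe genes as variable as Klrb1c. Alternatives were DESeq2 1.42.0 (test, and size factors), limma-voom 3.58.1, library size scaling, other filters, robust=FALSE, single genotypes, 4 libraries alone, the mean of the 3 effects and each library left out. Motif windows and overlaps came from RefSeq GRCm38.p6 and GENCODE M21. The members and gene lists were chosen with earlier results of these data known. Named by rule were the members, Ezh2, Cd44, called list genes (at most 4 a list and comparison, by p), called neighbours and the 5 genes most like each member, of which the closest are printed.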

Additional observations from a re-analysis of the deposited data

How the results depend on the processing

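No paired analysis was possible because the replicate numbers were given in accession order and do not pair libraries. Of the alternatives for single genes, 613 kept direction and side of the threshold, 44 passed it, 40 lost it and 11 reversed, of which 2 were called, both without WT CD44+ NK1.1- replicate 1: Clec2d between genotypes in CD44+ NK1.1- cells (0.46, and -0.59 without replicate 2) and the CD44- minus CD44+ difference of the genotype effect of Klrb1c (-0.49, and 1.18 without replicate 2). The other 9 reversals were not called. With 1 library left out, log2 fold changes over all subsets ran from -0.78 to 0.08 for Klrb1a (0.02 with limma-voom), from -0.49 to 0.52 for Klrb1f and from -0.01 to 0.51 for Clec2d. Those of Clec2d between CD44+ and CD44- cells ran from -0.18 to 0.79 (-0.17 in Ezh2-KO libraries). The difference of effects ran from -0.15 to 0.9 for Clec2d between NK1.1+ and NK1.1- cells and from -0.04 to 0.9 for Klrb1a between CD44- and CD44+ cells. The cause of these changes was not tested.

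With no filter the genotype test called 233 genes and 2 members in CD44+ NK1.1+ cells and 87 genes in CD44- NK1.1- cells, and the differences of effects 1 and 24 genes. With at least 1 CPM, 1 member was called in CD44+ NK1.1- cells, 0 in CD44+ NK1.1+ cells, and 1 gene for the CD44- difference. DESeq2 called 1 member in CD44+ NK1.1- cells, 197 genes and 2 members in CD44+ NK1.1+ cells, 94 genes in CD44- NK1.1- cells, and for the differences 28 genes each and 1 member. Limma-voom called 1 member in CD44+ NK1.1- cells, 20 genes and 0 members in CD44+ NK1.1+ cells, 7 genes in CD44- NK1.1- cells and 1 member for CD44. With robust=FALSE there were 1 and 0 members in the CD44+ subsets, and with 4 libraries alone 1. WT libraries gave 1416 genes and 3 members for NK1.1 and 1 member for CD44, Ezh2-KO libraries 2565 genes for NK1.1, and 68 genes and 1 member for CD44. The mean of 3 effects gave 951 genes and 1 member.

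With 1 library left out, Ezh2-KO against WT called 101 to 5792 genes (0 to 6 members) in CD44+ NK1.1- cells, 25 to 2437 (0 to 5) in CD44+ NK1.1+ cells, 1 to 2486 (0 to 2) in CD44- NK1.1- cells and 489 to 2794 (0 to 3) over all subsets. NK1.1 gave 1416 to 8585 (3 to 6), CD44 69 to 4394 (1 to 6), the NK1.1 difference of effects 0 to 2634 (0 to 6) and the CD44 difference 1 to 3063 (0 to 3). Calls in the CD44+ NK1.1- genotype test were 101 and 108 without an Ezh2-KO replicate, when spread rests on the WT pair, and 3752 and 5792 without a WT one, when it rests on the Ezh2-KO pair.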
